A study of Mus musculus with 10 samples.

Results

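Cxcl5, the mouse gene for a secreted chemokine that calls neutrophils through the receptor CXCR2, was followed here in bulk RNA of sorted tumour cells and in single cells of dissociated lung tumours. It is 1 gene of 32285 in the single-cell matrix and of 55341 in the bulk tables. It was selected on its measured level, which differed between SHP099 and vehicle in the bulk libraries, so that bulk difference is given below as a description, without a test. Its levels in single cells, by cluster, treatment and mouse, come from other libraries, but the labels do not say whether they come from other mice. They were read with the bulk result already known.

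All groups were mice that carried lung tumours grown from KP cells, a mouse lung tumour line, put into the blood of syngeneic hosts. All were treated for 11 days, so the vehicle mice bore KP tumours too. SHP099 inhibits the phosphatase SHP2, and SX682 inhibits the chemokine receptors CXCR1 and CXCR2. Sorted Epcam+ cells gave 6 bulk libraries, 3 per group for SHP099 and vehicle. Single cells were captured in 4 pools, 1 for each of vehicle, SHP099, SX682 and both drugs together (called the combination), and each pool joined 3 mice marked by hashtags. Because each treatment was captured once, an effect of the capture and an effect of the treatment cannot be told apart in any single-cell comparison. Age, sex and strain of the mice were not given in the sources used here, and nothing says whether the bulk libraries came from separate mice, so bulk p-values measure only the spread between these libraries.

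CXCR2 is a receptor of neutrophils and is the target of SX682 together with CXCR1. In the mouse its ligands Cxcl1, Cxcl2, Cxcl3, Cxcl5, Ppbp and Cxcl15 sit close together on chromosome 5. In lung, epithelial cells are a known source of Cxcl5, and interleukin-1, tumour necrosis factor and interleukin-17 can induce it through NF-kB and through stabilisation of its messenger RNA. SHP2 passes signals of receptor tyrosine kinases on to ERK.

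The gene (ENSMUSG00000029371.7) lies on chromosome 5 from 90759360 to 90761624 on the plus strand of mm10, and its coding transcript has 4 exons. The next genes downstream are Ppbp, which begins 6894 bases after the end of Cxcl5, and Pf4, the platelet chemokine, 10811 bases after it. Cxcl3 follows at 24479, Cxcl15 at 32910, Cxcl1 at 129617 and Cxcl2 at 142247 bases. The last 297 bases of its 396-base coding sequence (bases 100 to 396, counted from the start codon) are printed because reads of close relatives can be confused. The capitals mark bases 247 to 257, the longest stretch that it shares with the coding sequences of Cxcl1, Cxcl2 and Cxcl3.
Cxcl5: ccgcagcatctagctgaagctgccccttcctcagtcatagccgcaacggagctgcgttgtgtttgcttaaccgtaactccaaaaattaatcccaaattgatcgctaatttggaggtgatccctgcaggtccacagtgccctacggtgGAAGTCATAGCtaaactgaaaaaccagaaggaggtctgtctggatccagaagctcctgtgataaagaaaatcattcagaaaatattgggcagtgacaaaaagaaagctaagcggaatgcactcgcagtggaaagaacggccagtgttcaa
This stretch is 11 bases long, and the longest stretch shared by whole transcripts of Cxcl5 and any of the other 6 genes is 12 bases. Bulk reads were 150 bases long, so a read within any of these genes runs far past every shared stretch.

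The bulk libraries held 51939301 to 73361005 counted reads. The single-cell matrix held 44986 cells, 2289 to 6399 per mouse, with a median of 1440 to 4838 transcripts (UMIs) per cell. Barcodes were not unique to a pool, and 1009 occurred in more than 1 pool. In the bulk libraries the 7 epithelial markers, Epcam among them, summed to 8420 to 12287 CPM (counts of a gene scaled to the library size). Markers of other lung cells were present beside them. The 6 markers of alveolar type 2 cells summed to 2972 to 6667 CPM in vehicle and 281 to 571 CPM in SHP099. Of the 6, 5 passed the edgeR test as lower, where 0.108% of all genes tested did. Macrophage markers summed to 573 to 603 CPM in vehicle and 252 to 392 CPM in SHP099, with 0 of 6 past the test. Fibroblast markers summed to 1244 to 2255 CPM and 421 to 767 CPM, with 0 of 5 past it. Not every such marker was lower. Pecam1, an endothelial marker, measured 346 ± 116 CPM in vehicle and 428 ± 223 CPM in SHP099 (SD, n = 3), with overlapping groups. Epcam itself measured 313 ± 24.4 and 387 ± 218 CPM.

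In sorted Epcam+ cells Cxcl5 was about 3 times as high after SHP099 as after vehicle. Vehicle libraries 1 to 3 held 5019, 5414 and 4231 Cxcl5 reads, or 98.0, 102.7 and 81.6 CPM. SHP099 libraries 1 to 3 held 22747, 16325 and 18661 reads, or 374.5, 271.1 and 259.5 CPM. The groups did not overlap, and the lowest SHP099 library stood well above the highest vehicle library. Group means were 94.1 ± 11.1 and 302 ± 63.3 CPM (SD, n = 3). The fitted log2 ratio was 1.68 ± 0.17 (SE), or 3.21-fold. In rank of level among all genes tested, Cxcl5 stood at 2502, 2323 and about 3043 in the vehicle libraries and at 354, 583 and 659 in the SHP099 libraries. Of 10522 genes with an average of at least 3 log2 CPM, 9 had a larger fold rise. As a background to this choice, 0.00492% of 20314 genes were called higher in SHP099 and 0.108% lower (edgeR quasi-likelihood test, Benjamini-Hochberg adjusted p below 0.05). All 3 SHP099 libraries lay above all 3 vehicle libraries in 6.3% of genes and below them in 8.59%. Cxcl5 is the 1 gene called higher, and nothing is read from these shares because they come from the contrast that chose it. In a bulk sample, fewer cells of a type and less RNA per cell cannot be told apart, and the lower alveolar type 2 markers moved with the Cxcl5 difference. The part of that shift in the bulk value was not tested. The single-cell cluster of normal alveolar and airway epithelium held 7.90 CPM of Cxcl5, from 12 UMIs, 7 of them in 1 cell.

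The other CXCR2 ligands in the bulk libraries went in different directions. Cxcl1, the ligand nearest to Cxcl5 in level, measured 87.4, 89.3 and 74.4 CPM in vehicle and 161, 170 and 223 CPM in SHP099. Its groups did not overlap, but its log2 fold change of 1.14 ± 0.15 (SE) did not pass the edgeR test (adjusted p = 0.0569). Cxcl15, a lung-restricted ligand and a leading gene of the normal alveolar and airway cluster, fell from 58.2 ± 18.5 to 6.26 ± 2.91 CPM (SD, n = 3), with a log2 ratio of -3.22 ± 0.38 (edgeR adjusted p = 0.0415). Of the 5 ligands beside Cxcl5, 0 were called higher and 1 lower, with a median log2 fold change of 0.42 against -0.00 for all genes tested. Per kilobase of exon, Cxcl5 went from 50.5 to 162 CPM, Cxcl1 from 44.6 to 98.4 CPM and Cxcl2 from 8.19 to 11.0 CPM. By this measure Cxcl5 was the highest of the 6 ligands in both groups, with Cxcl1 close below it in vehicle.

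**Figure D1:**
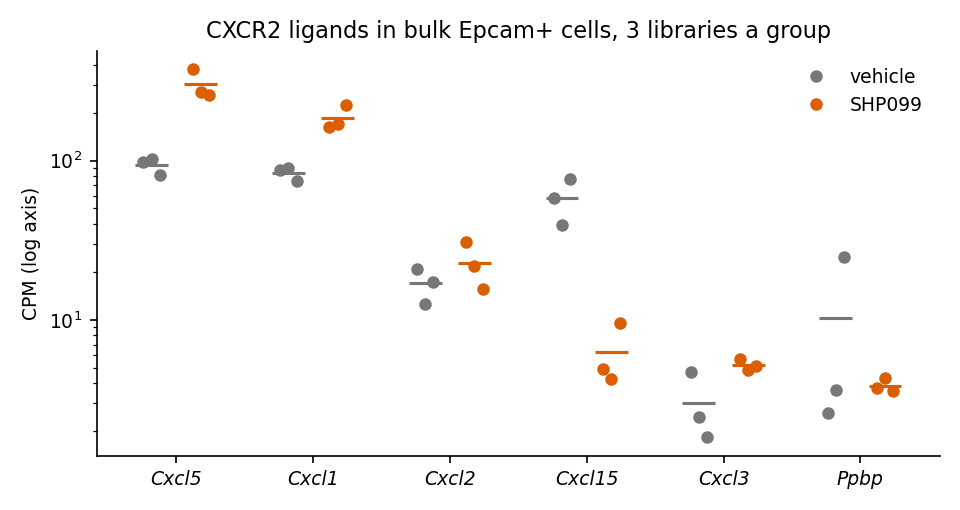
CPM of 6 CXCR2 ligands (log axis) in 3 vehicle and 3 SHP099 bulk libraries, with points for libraries and lines for group means. Cxcl5 lay between 81.6 and 102.7 CPM in vehicle and between 259.5 and 374.5 CPM in SHP099, while Cxcl15 was lower in SHP099.

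Single cells showed which cells carried the transcript. Of 7975 Cxcl5 UMIs in the whole matrix, 7456 (93.5%) lay in the 4093 cells of the authors' clusters 21 and 23. Both were called tumour-like from epithelial markers, and are called tumour cells below. Cluster 21 was higher than other cells in 5 of the 7 markers (Epcam, Krt8, Krt18, Krt19 and Krt7), and cluster 23 in 3 (Krt8, Krt18 and Krt19), Epcam not among them. Cluster 23, led by Cdkn2a, Ankrd1 and Hmga2, held 6023 UMIs in 2022 cells, or 162 CPM, and 47.0% of its cells had at least 1 Cxcl5 UMI (95% exact binomial interval 44.8 to 49.2%). Cluster 21, led by Lypd8, Muc3 and Prap1, held 1433 UMIs in 2071 cells, or 77.3 CPM, and 19.7% of its cells were positive (18.1 to 21.5%). Cells of cluster 23 were also deeper, with a median of 15136 UMIs against 7395. These intervals, and those below, cover counting error only. The clusters were built by the authors from the same transcripts, so their levels are described without a test.

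Outside the tumour clusters Cxcl5 was rare. In 29 of 33 clusters it was below 12 CPM, and plasma cells, the monocytes of cluster 12 and the endothelial cells of cluster 11 had 0 UMIs. For the 288 plasma cells, 0 positive cells allows a share of up to 1.04%. All 9540 neutrophils, the cells that respond to the chemokine, held 49 UMIs or 3.73 CPM. Among the 6 neutrophil clusters the level ran from 2.14 to 5.23 CPM, and all 6 counting intervals overlapped. Macrophages held 1.93 CPM, T cells 1.72 CPM, B cells 1.45 CPM and NK cells 0.728 CPM. With every cell thinned to 2000 UMIs, the share of positive cells in the leukocyte classes lay between 0.170% in dendritic cells and 0.407% in NK cells. These shares serve below as a background, and whether they come from free RNA in the droplets was not tested. The leukocytes deep enough to be thinned had 2000 UMIs each like the tumour cells.

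The exceptions outside the tumour clusters were fibroblasts and cluster 22. Fibroblasts of cluster 20 held 45.4 CPM, from 200 UMIs in 379 cells, and 3.93% were positive after thinning (2.11 to 6.62%, 13 of 331 cells). Before thinning 41 fibroblasts were positive, 22 of them with at least 2 UMIs. Positive were 11.7, 9.30 and 25.9% in vehicle mice, with at most 10, 2 and 4 UMIs in a cell. In SX682 mice 18.5, 10.9 and 28.6% were positive. SHP099 mice had 0 Cxcl5 UMIs in 7, 5 and 4 fibroblasts. Combination mice had 1, 1 and 0 UMIs in 38, 34 and 20. The 5 fibroblasts with the most Cxcl5 held 62.5% of the 200 UMIs. The top cell, in SX682 mouse 1, had 78 Cxcl5 UMIs and 76 UMIs of Krt8, Krt18 and Epcam, genes of epithelial cells. In dendritic cells 1 cell of SX682 mouse 2 held 43 of 56 UMIs and also had 58 UMIs of the same 3 epithelial genes. Doublets were not called here, and whether such cells are doublets was not tested. Cluster 22, left unnamed, had only 95 cells with a median of 1417 UMIs, and its 29 Cxcl5 UMIs gave 164 CPM (110 to 236, 95% Poisson interval). It was higher than other cells in 4 of the 7 epithelial markers (Krt8, Krt18, Krt19 and Krt7). No marker of any other cell type was higher in it. Its leading genes were Gm5039, B020031M17Rik and Tmem132c, and whether its cells are shallow tumour cells was not tested. Its Krt8 level of 3344 CPM and Krt18 level of 1723 CPM were near but below those of the tumour clusters (at least 3491 and 2111 CPM).

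**Figure D2:**
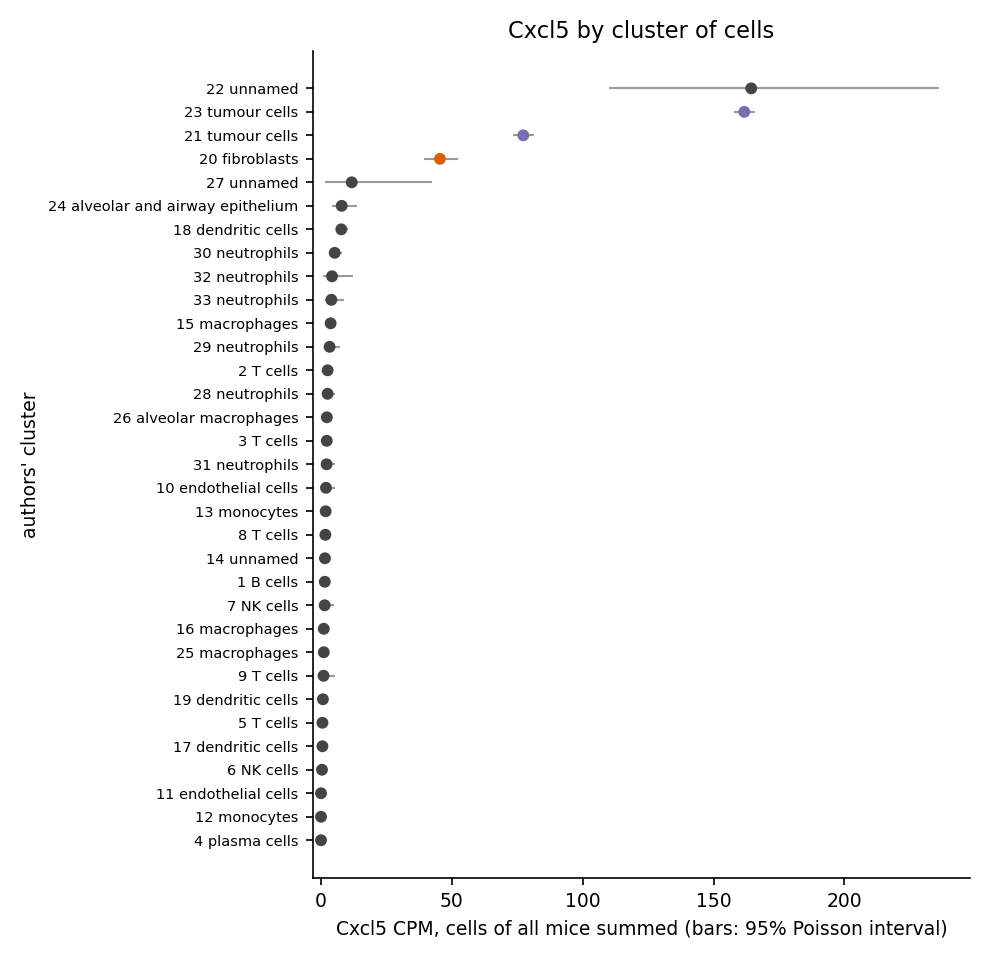
Cxcl5 CPM (x axis) in each of the authors' 33 clusters (y axis), summed over cells of all mice, with 95% Poisson intervals as bars. Both tumour clusters (purple), cluster 22 and fibroblasts (orange) stand apart from the 29 clusters below 12 CPM.

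Within tumour cells, Cxcl5 was lowest after vehicle and highest after the combination. UMIs were summed over the tumour cells of each mouse, 57 to 1123 cells, and scaled to CPM. Vehicle mice 1 to 3 measured 55.3, 55.5 and 61.1 CPM, a narrow range. SHP099 mice measured 188, 301 and 141 CPM, all above every vehicle mouse. SX682 mice measured 123, 139 and 54.1 CPM, so that mouse 3 fell below the vehicle mice. Combination mice measured 270, 408 and 392 CPM. The order of the means was vehicle (57.3 ± 3.27 CPM), SX682 (106 ± 45.2), SHP099 (210 ± 82.2) and combination (356 ± 75.6; SD, n = 3 mice each). SX682 lay between vehicle and SHP099 and did not differ from vehicle beyond its spread, and the combination overlapped with SHP099, whose highest mouse stood above the lowest combination mouse.

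SHP099 against vehicle gave a log2 fold change of 1.89 ± 0.30 (SE; edgeR adjusted p = 0.00140, higher in 3 of 3 mice), or 3.70-fold, where 6.24% of 10993 genes were called higher and 7.26% lower, 13.5% in all. The combination against vehicle gave 2.64 ± 0.30 (edgeR adjusted p = 0.000279, 3 of 3 mice), or 6.23-fold, with 4.76% of genes called higher and 5.57% lower, 10.3% in all. All 3 mice lay above all 3 vehicle mice in 15.8% of genes for SHP099, 7.76% for SX682 and 17.3% for the combination. Of 260 genes that rose with the combination and averaged at least 5 log2 CPM, Cxcl5 had the 2nd largest fold change. The combination was also higher than SX682 alone, by 1.72 ± 0.29 (edgeR adjusted p = 0.00393), with 2.47% of genes called higher and 3.75% in either direction. With equal cell numbers, where 57 cells were drawn from each mouse, this call was lost (0.78). The rise over vehicle then came to 1.43 for SHP099 and 1.85 for the combination, and both still passed (edgeR adjusted p = 0.00988 and 0.00473). SX682 against vehicle gave 0.92 ± 0.29 and did not pass (edgeR adjusted p = 0.274; 0.0637% of genes called higher, 0.364% in either direction). The combination against SHP099 gave 0.75 ± 0.29 and did not pass (edgeR adjusted p = 0.204; 0.855% called higher, 1.57% in either direction). Both passed when genes of low count were kept in the fit (0.91 and 0.76). The fold changes hardly moved, while SHP099 against vehicle went to an edgeR adjusted p of 1.1e-12 in that fit. These passes thus do not come from a larger difference in Cxcl5. Non-additivity, the combination's difference minus the sum of both single-drug differences, was -0.16 ± 0.41 on the log2 scale (edgeR adjusted p = 0.905; 0.373% of genes called in either direction). It turned positive without SHP099 mouse 2 (0.20) or without SX682 mouse 2 (0.03). The comparisons with vehicle share the 3 vehicle mice.

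Leukocyte transcripts in the tumour cells moved beside these values. The 6 neutrophil markers together reached 2585 to 4071 CPM in vehicle mice, 1134 to 2878 CPM with SHP099, 1054 to 3085 CPM with SX682 and 2982 to 6234 CPM with the combination. The 6 macrophage markers summed to 433 to 488, 50.3 to 71.0, 113 to 324 and 129 to 237 CPM in the same order. The epithelial markers summed to 9431 to 11596 CPM in vehicle, 6441 to 9481 CPM in SHP099, 8708 to 9173 CPM in SX682 and 5760 to 6900 CPM in the combination. Of 5 tested, 2 fell with SHP099 and 4 with the combination, where 7.26% and 5.57% of all genes fell. The part of these shifts in the Cxcl5 values was not tested. In tumour cells with at most 2 UMIs of 9 leukocyte genes, a filter chosen after seeing the data, the Cxcl5 values were as large: 2.14 ± 0.29 for SHP099, 1.02 ± 0.28 for SX682 and 2.81 ± 0.29 for the combination, each against vehicle. The 9 genes were Ptprc, Csf3r, Cxcr2, C1qa, C1qb, C1qc, Cd3d, Cd3e and Cd79a. Neutrophil markers still summed to 2142 to 3712 CPM in the combination mice of that set. There SHP099 and the combination passed the edgeR test (adjusted p = 0.000416 and 9.8e-05) and SX682 did not (adjusted p = 0.221).

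The tumour clusters differed in how Cxcl5 changed with SHP099. In cluster 23 vehicle mice measured 68.3, 67.9 and 77.8 CPM and SHP099 mice 249, 341 and 164 CPM. In cluster 21 vehicle mice measured 29.4, 26.9 and 43.0 CPM and SHP099 mice 33.5, 68.4 and 25.1 CPM. The groups were apart in cluster 23 and overlapped in cluster 21. The log2 fold change was 1.83 ± 0.27 in cluster 23 (edgeR adjusted p = 0.000395; 6.89% of genes called higher) and 0.34 ± 0.46 in cluster 21 (adjusted p = 0.750; 2.47% called higher). Few cells support the latter value, since the SHP099 mice had 67 cells in cluster 21, with 11, 16 and 5 Cxcl5 UMIs. In SHP099 mouse 2, at 68.4 CPM, 15 of the 16 UMIs lay in 1 cell.

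The combination raised Cxcl5 in both clusters. In cluster 21 its mice measured 209, 218 and 323 CPM, and in cluster 23 they measured 303, 470 and 455 CPM. All 6 values lay above those of the vehicle mice in the same cluster. Against vehicle the log2 fold change was 2.91 ± 0.28 in cluster 21 (edgeR adjusted p = 1.5e-05; 4.98% called higher) and 2.53 ± 0.26 in cluster 23 (adjusted p = 4.63e-05; 3.90% called higher). Against SHP099 alone the combination passed in cluster 21 (2.57 ± 0.40, edgeR adjusted p = 0.0150; 0.142% called higher) and did not in cluster 23 (0.69 ± 0.26, adjusted p = 0.189; 0.775% called higher). SX682 against vehicle gave 1.00 in cluster 21 and 0.88 in cluster 23, and neither passed the edgeR test (adjusted p = 0.322 and 0.192; 0.0109% and 0.151% called higher). The combination passed against SX682 in both, by 1.90 and 1.65 (edgeR adjusted p = 0.00140 and 0.00106; 2.2% and 2.59% called higher). Non-additivity was 1.57 ± 0.51 in cluster 21 and -0.18 ± 0.37 in cluster 23, and neither passed (edgeR adjusted p = 0.271 and 0.884; 0.0982% and 0.503% called higher).

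The difference between the clusters was tested itself, as log2(CPM + 50) of cluster 21 minus that of cluster 23 in each mouse, on UMI totals without further scaling. The mean was -0.54 ± 0.09 for vehicle, -1.68 ± 0.14 for SHP099, -0.62 ± 0.22 for SX682 and -0.63 ± 0.29 for the combination (SD, n = 3 mice). All 3 SHP099 mice, from -1.80 to -1.52, lay below all other mice, whose lowest value was -0.97. Over the 4 treatments the exact permutation test of 12 mice gave p = 0.0171 (F statistic, 15400 partitions). Single pairs of 3 mice cannot go below p = 0.1 in an exact test, and SHP099 reached that value against each of the other groups. Cluster 23 held 45.0 ± 9.58% of tumour cells in vehicle mice, 69.6 ± 8.16% with SHP099, 47.6 ± 9.25% with SX682 and 51.3 ± 11.3% with the combination. Because the authors' clustering used the cells of all treatments, the part of cluster assignment in this difference was not tested.

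**Figure D3:**
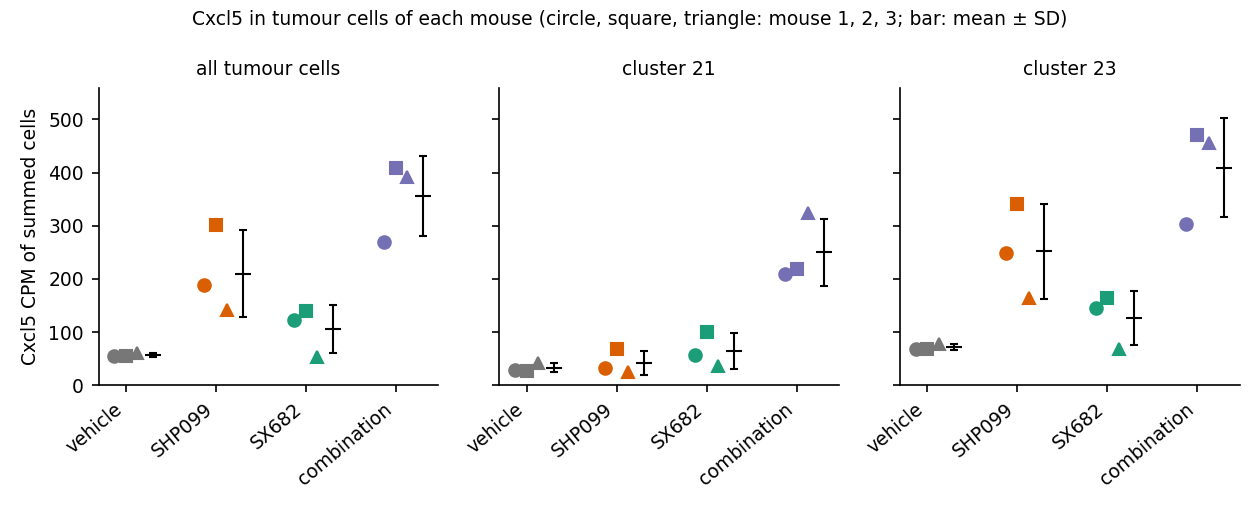
Cxcl5 CPM (y axis) of the summed tumour cells of each mouse by treatment (x axis), for all tumour cells, cluster 21 and cluster 23. Marker shapes give mouse 1, 2 and 3, and bars give mean ± SD. SHP099 mice are high in cluster 23 and in the range of vehicle to 68.4 CPM in cluster 21, while combination mice are high in both.

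A Cxcl5 UMI was found in a larger share of tumour cells in treated than in vehicle mice. With each cell thinned to 2000 UMIs, vehicle mice had 6.33, 6.36 and 7.22% positive cells, SHP099 mice 10.7, 25.6 and 14.04%, SX682 mice 13.7, 19.2 and 7.81%, and combination mice 20.9, 26.1 and 30.1%. Vehicle mice were the lowest 3 of 12 mice. The means were 6.64 ± 0.51, 16.8 ± 7.84, 13.6 ± 5.68 and 25.7 ± 4.64% (SD, n = 3). Over the 4 treatments the shares differed (exact permutation test of 12 mice on logit shares, p = 0.0136). Each treated group was apart from vehicle, at an exact p of 0.1, the smallest for 3 against 3, and SHP099 overlapped with both SX682 and the combination. These shares come from 1 random draw, and the binomial intervals do not cover the spread between draws. The overlap with the combination depends on the draw. SHP099 mouse 2 had 21 positive cells of 82 here and 20 in the separate draw used below for co-expression. Combination mouse 1 had 52 of 249 here and 61 there. The combination lay above SHP099 in all mice at 1000 UMIs (18.2 to 20.3% against 7.69 to 14.3%), at 4000 UMIs (33.99 to 45.0% against 22.6 to 31.1%) and when 2 UMIs were asked for (11.6 to 15.3% against 3.51 to 8.54%). Without thinning the means were 24.4, 45.5, 36.5 and 48.1% in the same order. Leukocyte classes thinned in the same way ranged from 0 to 0.460% in vehicle, 0 to 0.556% in SHP099, 0 to 0.426% in SX682 and 0.306 to 1.39% in the combination. This background was thus highest in the combination, from 1 to 6 positive cells a class, and every tumour share lay above it. Before thinning the median depth was 10113 UMIs in tumour cells and 1732 in leukocytes. UMIs per positive thinned cell averaged 1.47 ± 0.11 for vehicle, 1.91 ± 0.17 for SHP099, 1.55 ± 0.17 for SX682 and 2.50 ± 0.25 for the combination (SD, n = 3), without a test.

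The thinned share was also taken within each cluster. In cluster 21 the means were 4.01 ± 0.93% (vehicle), 3.297 ± 3.33% (SHP099), 7.36 ± 4.18% (SX682) and 18.3 ± 4.79% (combination; SD, n = 3). In cluster 23 they were 9.86 ± 1.31, 21.97 ± 9.85, 19.99 ± 6.601 and 33.2 ± 7.03% in the same order. The SHP099 value in cluster 21 rests on 1, 0 and 1 positive cells of 31, 19 and 15. Without thinning the cluster 21 means were 21.8 ± 11.9% for SHP099 and 13.7 ± 1.43% for vehicle, so the order of these groups turned. The difference in share between the clusters was not tested. The shares over treatments passed the exact permutation test within cluster 21 (p = 0.0197) and within cluster 23 (p = 0.0114), both added after seeing the data.

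**Figure D4:**
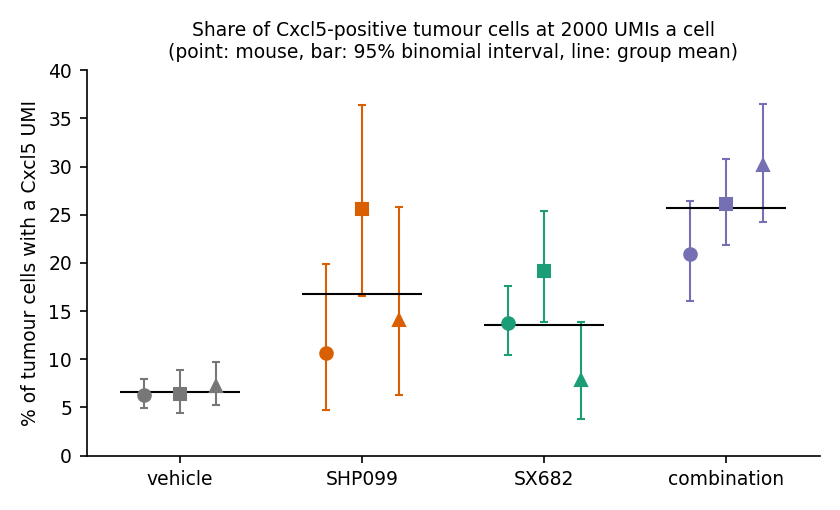
Percent of tumour cells with a Cxcl5 UMI after thinning each cell to 2000 UMIs (y axis), per mouse and treatment, with 95% exact binomial intervals as bars and group means as lines. Vehicle mice lie between 6.33 and 7.22% and combination mice between 20.9 and 30.1%.

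Cxcl5 was spread unevenly over tumour cells. At the mean of 1.82 UMIs per cell a Poisson spread would give 83.8% positive cells, and 33.2% were positive. The tenth of cells with the most Cxcl5 held 78.4% of its UMIs. There were 79 cells with at least 20 UMIs, which held 39.1% of all UMIs in tumour cells, and the highest cell had 174. Depth differs between cells and adds to this spread. At an equal 2000 UMIs per cell, 12.8% were positive where the Poisson value was 22.7%. With Cxcl5 capped at 20 UMIs per cell, the SHP099 mice measured 169, 195 and 119 CPM and the combination mice 226, 264 and 332 CPM, still above the vehicle mice at 53.4 to 60.4 CPM.

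Over the whole cell suspension the treated groups were not ordered as in tumour cells. Tumour cells were 18.3 ± 3.44% of all cells with vehicle, 2.42 ± 0.34% with SHP099, 6.59 ± 3.23% with SX682 and 7.40 ± 0.93% with the combination (SD, n = 3 mice). Per 1000 cells of all types, Cxcl5 UMIs numbered 140, 118 and 186 in vehicle mice and 59.6, 154 and 70.8 in SHP099 mice. They numbered 271, 134 and 39.5 in SX682 mice and 177, 346 and 344 in combination mice. The SHP099 and SX682 ranges overlapped the vehicle range, and the lowest combination mouse lay below the highest vehicle mouse. Neutrophils, the responding cells, were 13.03 ± 3.11% of cells with vehicle, 30.7 ± 4.69% with SHP099, 14.97 ± 7.64% with SX682 and 26.5 ± 4.06% with the combination. These shares passed through live-cell enrichment and were not tested here. Tumour cells supplied 94.1 to 97.5% of Cxcl5 UMIs in mice of the other 3 groups and 85.3 to 86.7% in SX682 mice, where fibroblasts supplied 3.54 to 12.5%. The 12.5% is from SX682 mouse 1, where 78 of 128 fibroblast UMIs lay in 1 cell that also had 76 UMIs of epithelial genes.

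Genes that went with Cxcl5 were sought by comparing Cxcl5-positive with Cxcl5-negative tumour cells of the same mouse, at 2000 UMIs per cell and without Cxcl5 itself. In 11 mice with enough cells, 86 of 2061 genes were higher in positive cells (4.17%) and 144 were lower (6.99%; edgeR, mouse as a factor, adjusted p below 0.05). Cxcl1, another CXCR2 ligand, had the largest rise of the named genes. It measured 261 ± 102 CPM in positive and 74.5 ± 64.6 CPM in negative cells (SD, n = 11 mice), a log2 difference of 1.79 ± 0.18 (SE; edgeR adjusted p = 8.86e-08, higher in 11 of 11 mice). The cells also show this without thinning, where 39.4% of positive cells had a Cxcl1 UMI against 11.5% of negative cells. Unthinned positive cells were deeper, with a median of 16028 UMIs against 8103. Of the other ligands, Cxcl2 and Cxcl3 could be tested. Cxcl2 was lower in positive cells (-0.76 ± 0.16, edgeR adjusted p = 0.00205, lower in 9 of 11 mice), and Cxcl3 gave -0.41 ± 0.21 without passing (adjusted p = 0.219). Without thinning Cxcl3 was found in 26.7% of positive and 17.7% of negative cells, and Cxcl2 in 58.3% of both.

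The other 11 genes named for the largest rises were chosen among those higher in every mouse, so that their agreement over mice is no result. Igfbp7, which encodes a secreted protein that binds insulin-like growth factors, was at 700 ± 322 against 329 ± 80.5 CPM (log2 difference 0.96 ± 0.13). Fbln2, a matrix gene, gave 0.91 ± 0.20 and Trf, the transferrin gene, 0.77 ± 0.15. Soat1, which esterifies cholesterol, gave 0.70, Ctxn1 0.63 and Sox4, a transcription factor gene, 0.63. Adh5, Cdkn2a, Rnaseh2c, Rtn4 and Vim gave 0.55, 0.47, 0.44, 0.43 and 0.38. Cdkn2a, a cell cycle inhibitor, was among the leading genes of cluster 23, and Vim encodes a filament protein of mesenchymal cells.

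The 8 genes named for the largest falls in positive cells were likewise chosen among those lower in every mouse. Prap1, a secreted gut protein, was at 54.7 ± 89.3 against 475 ± 268 CPM (-2.77 ± 0.29, edgeR adjusted p = 1.23e-07). Muc3, a membrane mucin, gave -1.91 ± 0.22, and Lypd8, a gut surface protein, gave -1.79 ± 0.21. Alpi, the intestinal alkaline phosphatase, gave -1.78, the cytochrome gene Cyp3a13 -1.72 and Apoc2, an apolipoprotein gene, -1.35. Aldh1a1, a retinaldehyde dehydrogenase, gave -1.05 and Cdhr2, a brush border cadherin, -1.03. Prap1, Muc3, Lypd8, Alpi and Cyp3a13 are leading genes of cluster 21, in which fewer cells had Cxcl5, so the comparison over all tumour cells also compares the clusters.

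Within single clusters fewer genes passed, with fewer cells and fewer genes tested. Every named rise tested in cluster 23 was also smaller there than over all tumour cells. Igfbp7 gave 0.46, Sox4 0.42, Cdkn2a 0.20, Fbln2 0.14, Ctxn1 0.14, Rtn4 0.13, Trf 0.05 and Vim 0.04. Rnaseh2c gave -0.12 and Adh5 -0.13, and none of these passed in cluster 23. In cluster 21 Sox4 gave 0.51, Cdkn2a 0.27, Adh5 0.22, Rtn4 0.14 and Rnaseh2c -0.01, also without passing. In cluster 23 (10 mice) 5 of 1359 genes were higher in positive cells (0.368%) and 4 lower (0.294%). Cxcl1 passed there too, at 1.53 ± 0.26 (edgeR adjusted p = 0.000820). The other 4 higher genes, named after their values were seen, were Vcam1, an adhesion molecule that leukocytes bind (1.01 ± 0.17), Clca3b (0.86 ± 0.18), Rdh10, which makes retinaldehyde (0.79 ± 0.17), and Tmem176b (0.65 ± 0.15). The 4 lower genes were Cxcl2 (-0.70), Il1b (-0.64), X2410006H16Rik (-0.43) and Eif1 (-0.28). In cluster 21 (8 mice) 9 of 1877 genes were higher (0.479%) and 12 lower (0.639%), and Cxcl1 was not among the genes tested. Igfbp7 (1.25 ± 0.25) and Vim (0.59 ± 0.11) were higher there, and Prap1 (-1.96 ± 0.31), Muc3, Lypd8, Alpi and Cyp3a13 lower, so for these 7 the difference was also measured inside cluster 21. Only Clca3b (1.29 ± 0.17 in cluster 21) passed in both clusters, again a gene named after its values were seen.

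Several genes that were lower in positive cells are abundant in leukocytes. Il1b gave -0.79 ± 0.12 over all tumour cells (edgeR adjusted p = 5.72e-05, lower in 11 of 11 mice), S100a8 -0.76 ± 0.16 and S100a9 -0.71 ± 0.14. All 3 are neutrophil transcripts, as is Cxcl2, and neutrophil clusters 29 and 33 are led by Il1b with Cxcl2 and by S100a9. The part of leukocyte RNA in these differences was not tested gene by gene. Of 26 NF-kB and interleukin-17 response genes, 6 were abundant enough to be tested here, with 0 higher and 4 lower, where 4.17% of all genes tested were higher and 6.99% lower. Of 17 ERK output genes 6 were tested, with Ccnd1, the cyclin D gene, higher (0.65 ± 0.12) and Dusp5, an ERK phosphatase, lower (-0.81 ± 0.18). Within single clusters 0 genes of either list passed. In cluster 21 7 NF-kB and interleukin-17 genes and 5 ERK genes were tested, where 0.479% of all genes were higher and 0.639% lower. In cluster 23 4 and 5 were tested, where 0.368% of all genes were higher and 0.294% lower.

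**Figure D5:**
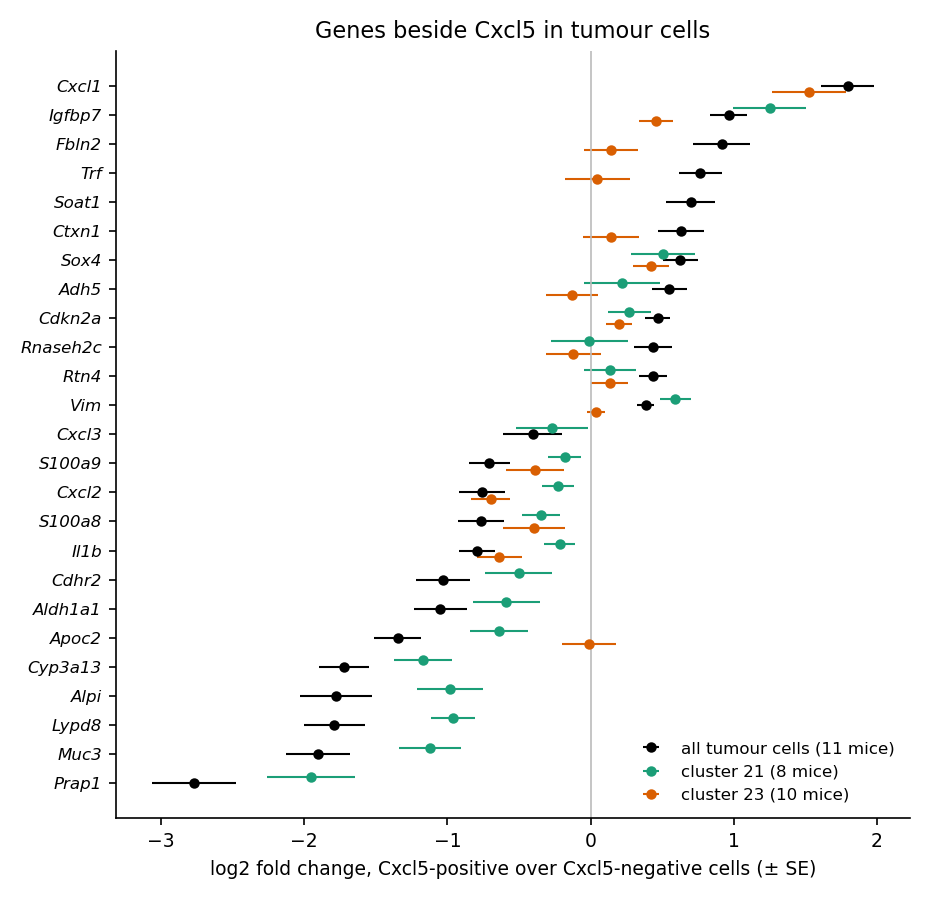
Log2 fold change (x axis, ± SE) of named genes (y axis) between Cxcl5-positive and Cxcl5-negative tumour cells of the same mice, for all tumour cells, cluster 21 and cluster 23. Cxcl1 is higher by 1.79 over all tumour cells and by 1.53 within cluster 23, and the genes from Prap1 to Cdhr2 are lower.

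The genes around Cxcl5 in its pathway were read in the same sums of tumour cells. Of the 5 other CXCR2 ligands, 3 could be tested. After SHP099 0 of 3 passed in either direction, where 13.5% of all genes did. Cxcl1 measured 55.5, 97.0 and 67.3 CPM against 80.2, 83.0 and 66.5 CPM in vehicle (log2 fold change -0.05, edgeR adjusted p = 0.961). Of these SHP099 mice 1 lay below, 1 within and 1 above the vehicle range of Cxcl1, while all 3 were above it for Cxcl5. After the combination 2 of 3 rose, where 4.76% of all genes rose. Cxcl1 rose by 1.30 ± 0.33 (edgeR adjusted p = 0.0257) and Cxcl2 by 1.28 ± 0.31 (adjusted p = 0.0182), with Cxcl3 at 0.78. The median of the 3 was 1.28 against 0.01 for all genes. Cxcl1 measured 221, 187 and 158 CPM in the combination mice, above all vehicle mice. With few leukocyte UMIs the combination values were 1.51 for Cxcl1 and 1.51 for Cxcl2.

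Cxcr2 and 4 genes of inducing cytokines or their receptors rose with the combination. Cxcr2 (1.31, edgeR adjusted p = 0.0489) and Osm (1.31, adjusted p = 0.0244) were also higher than with SHP099 alone, and Cxcl2, at 1.33 (adjusted p = 0.0497), was too. With few leukocyte UMIs Osm (1.49, edgeR adjusted p = 0.0956) no longer passed against SHP099, and Cxcl2 did (1.74, adjusted p = 0.0238). Cxcr2 is 1 of the 9 filter genes, so cells rich in it were removed and that set cannot test it. It gave 1.85 there against SHP099 (edgeR adjusted p = 0.0938) and 1.40 against vehicle (adjusted p = 0.0215). Cxcr2, the receptor gene of neutrophils, was at 8.97 to 12.1 CPM in the tumour cells of SHP099 mice, 10.5 to 15.3 in vehicle and 21.6 to 37.8 in the combination (1.11 ± 0.22 against vehicle, edgeR adjusted p = 0.00802). Of 16 genes of cytokines and receptors that can induce Cxcl5, 13 were tested in tumour cells. SHP099 and SX682 each gave 0 calls. The combination gave 4 higher and 0 lower, with a median of 0.72, where 4.76% of all genes were higher. They were Il1b (1.09), Osm (0.79), Tnf (1.32) and Il1rap (1.21), the last a subunit of the interleukin-1 receptor. Tnf and Il1rap, of low count, were named after their values were seen. Il1b, Osm and Tnf are made by leukocytes, and the neutrophil marker sums given above were highest in the combination. The part of leukocyte RNA was not tested, and Il1b with few leukocyte UMIs gave 1.25 (edgeR adjusted p = 0.0165). In bulk 0 of the 14 tested passed.

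Of 26 NF-kB and interleukin-17 response genes, 25 were tested in tumour cells. After SHP099 5 rose and 1 fell (median 0.07), where 6.24% of all genes rose and 7.26% fell. The risers were Nfkb2, an NF-kB subunit gene (0.55 ± 0.15, edgeR adjusted p = 0.0256), Icam1, an adhesion molecule that neutrophils bind (0.84 ± 0.26, adjusted p = 0.0460), and 3 genes of lower count named after their values were seen, Csf1 (1.59), Lif (0.89) and Ccl20. Ccl20 had 0, 3 and 1 UMIs in vehicle mice and 1, 166 and 4 in SHP099 mice, so its call rests on SHP099 mouse 2. Lcn2, which encodes an iron carrier-binding protein, fell by 1.24 in tumour cells (edgeR adjusted p = 0.04). It was the 1 gene of this list called in bulk (edgeR adjusted p = 0.00748, from all genes), at 65.9 ± 6.25 CPM in vehicle and 15.4 ± 1.82 CPM in SHP099 (SD, n = 3). With few leukocyte UMIs Nfkb2 kept its size (0.54) and lost its call (edgeR adjusted p = 0.0559), and Icam1 passed (1.12, adjusted p = 0.0235). Lcn2 there gave -0.34 in tumour cells and did not pass the edgeR test (adjusted p = 0.619). After the combination 6 rose and 1 fell (median 0.46), against 4.76% and 5.57% of all genes. Icam1 (0.99), Tnfaip2 (0.96) and Nfkb1 (0.59) were among those that rose, and Csf1 (2.35), of lower count, was named after its value was seen. Saa3, an acute-phase gene also named after its values were seen, fell after the combination (-2.35). It was the 1 gene of this list that fell after SX682 (-4.04), where 0.3% of all genes fell. Saa3 is also a leading gene of macrophage cluster 16, and the macrophage marker sums given above were lower in both groups than in vehicle. The part of macrophage RNA in its fall was not tested.

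Of 17 ERK output genes 16 were tested in tumour cells, and those called fell where Cxcl5 rose. After SHP099 0 rose and 3 fell (median -0.13), where 7.26% of all genes fell. They were Fos (-0.70 ± 0.10, edgeR adjusted p = 0.000878), Spred2 (-0.54 ± 0.16, adjusted p = 0.0391) and Dusp6 (-0.53 ± 0.16, adjusted p = 0.0410), the last an ERK phosphatase induced by ERK itself. With few leukocyte UMIs Dusp6 kept its size (-0.51) and lost its call (edgeR adjusted p = 0.0655). After the combination 0 rose and 2 fell (5.57% of all genes fell), Fos (-0.63 ± 0.10) and Etv4 (-0.66), the latter named after its value was seen. After SX682 0 passed. In bulk 0 of 17 passed, with Dusp6 at 386, 386 and 270 CPM in vehicle and 266, 253 and 286 CPM in SHP099.

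Across the 33 clusters the genes whose levels ran most like Cxcl5 were tumour-cell genes. By Pearson r of log2(CPM + 10) over clusters, among 4867 genes with at least 100 CPM somewhere, the 8 highest were Krt18 (0.955), Prkg2 (0.952), Cdkn2a (0.948), Hmga2 (0.943), Krt8 (0.941), Sprr1a (0.940), Ankrd1 (0.939) and Ptges (0.938). Krt8 and Krt18 encode keratins of simple epithelium, Hmga2 a chromatin protein, and Ptges the enzyme that completes prostaglandin E synthesis. The clusters share libraries and differ in depth, so these values are a description. Across the 12 mice, the 8 genes whose deviations from their treatment means in tumour cells were most like those of Cxcl5 were Apopt1 (0.943), Nae1 (0.924), Ndufa1 (0.913), Adss (0.908), Bud23 (0.905), Rrp1 (0.901), Uchl5 (0.894) and Dpysl3 (0.891), among 4133 genes. None of these is a cytokine gene, and Cxcl1 was not among the 8.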

How the data were processed

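The bulk tables hold raw read counts per gene, and the single-cell matrix holds raw UMI counts, both as deposited by the authors. Per the submitters' processing notes the tools were bcl2fastq, Cell Ranger, STAR, Picard, HTSeq, DESeq2, bedtools and R 3.3.0, with the mm10 build. Other versions were not given in the sources used here. Mouse and cluster of each cell were taken from the deposited annotation, and clusters were named from marker lists. No doublets were called.

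UMIs were summed per mouse over tumour cells. Counts were filtered (filterByExpr), scaled by TMM and tested with edgeR 4.0.16 in R 4.3.3, with the 12 mice in 1 fit of 4 treatments and Benjamini-Hochberg adjustment over all genes at 0.05. CPM are on TMM-scaled library sizes. Thinning drew 2000 UMIs per cell without replacement, with 1 random draw for the shares and a separate one for positive against negative cells. The scripts were tested on simulated data. Sequences and gene models came from GENCODE for mm10.

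Named genes were Cxcl5, the genes of listed pathways with an average of at least 3 (bulk) or 5 (single-cell) log2 CPM, up to 6 a list, every ligand and receptor, and the genes most different between positive and negative cells in the same direction in every mouse. Cxcl5, the lists and the tests were chosen with earlier results of these data known. Alternatives were DESeq2 1.42.0, other filters, cell choices and depths, leaving out each replicate, and a replicate block.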

Additional observations from a re-analysis of the deposited data

Results flagged for a closer look

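The difference in Cxcl5 between tumour clusters 21 and 23 varied over the 4 treatments in the exact permutation test of 12 mice (p = 0.0171). With log2(CPM + 50) of cluster 21 minus cluster 23, the SHP099 mice measured -1.80, -1.71 and -1.52. The vehicle mice measured -0.58, -0.61 and -0.44, and the SX682 mice -0.87, -0.55 and -0.45. The combination mice measured -0.50, -0.97 and -0.42. The SHP099 values in cluster 21 rest on 11, 16 and 5 Cxcl5 UMIs.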

How the results depend on the processing

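Of 164 alternative settings over 10 results, 151 left the result as reported. For tests this means the same direction, where there is one, and side of the threshold, for the untested bulk value (11 settings) the same direction and a shift below the SD between libraries, and for the gene count a change within 1.5 times. Keeping genes of low count brought SX682 against vehicle (0.91, edgeR adjusted p = 0.000882) and the combination against SHP099 (0.76, adjusted p = 0.00330) past it. Fold changes hardly moved in that fit, while SHP099 against vehicle also went far lower (edgeR adjusted p = 1.1e-12). In cluster 21 alone SHP099 against vehicle gave 0.34, the combination against SHP099 2.57 and non-additivity 1.57. With equal cell numbers the combination against SX682 gave 0.78, and against vehicle 1.85. Leaving out each replicate gave 1.497 to 1.80 for bulk, 1.52 to 2.10 for SHP099, 0.71 to 1.21 for SX682 and 2.53 to 2.81 for the combination. It gave 0.54 to 1.11 for the combination against SHP099, 1.43 to 1.93 against SX682, -0.47 to 0.20 for non-additivity (0.03 without SX682 mouse 2), and 169 to 238 for the 230 genes that differed with Cxcl5. That count was 75 at 1000 UMIs, 767 at 4000 UMIs, 67 with positive cells of at least 2 UMIs, 21 in cluster 21 and 9 in cluster 23. The last 3 used fewer cells. For the other changes the cause was not tested.

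With the replicate number as a replicate block, Cxcl5 gave 1.67 in bulk, 1.82 for SHP099, 0.86 for SX682 and 2.62 for the combination, and no Cxcl5 call changed. Same-numbered samples correlated at -0.03 to 0.03 in bulk and -0.16 to 0.31 in tumour cells. The highest values, 0.31 for number 1 and 0.24 for number 3, were between vehicle and SX682. Correlations of deviations from means of 3 samples cannot exclude a shared factor. Over all genes the block took calls from 40 to 16 for SX682 and from 173 to 115 for the combination against SHP099, and DESeq2 made 150 and 470. Non-additivity went from 41 to 31 calls with the block and to 202 with DESeq2. Tumour cells with at most 2 UMIs of other cell types' markers were not run, since 5 mice, 0 of them SHP099, had 10 such cells. The non-additivity fit has no subset of groups and was not run that way. The number of cells limits cluster 21 in SHP099 mice.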
